A study of Mus musculus with 4 samples.

Results

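The mRNA cleavage and polyadenylation factors described here are 10 genes: Cpsf1, Cpsf2, Cpsf3, Fip1l1, Cpsf6, Nudt21, Cstf2, Cstf3, Papola and Pabpn1. They were chosen by name, as the probe sets whose array annotation gives 1 gene symbol and that symbol is one of these, which found 35 of the 45037 probe sets that are not array controls. A probe set is a group of short oligonucleotides on an Affymetrix array that together give 1 value for a transcript. The arrays were hybridised with cytoplasmic RNA of Neuro2A, an established neuroblastoma cell line of the mouse. In the knockdown group the endogenous small RNA 4.5SH, a rodent noncoding RNA related to B1 repeats, was depleted with antisense oligonucleotides, and the other group is labelled control. Each group had 2 arrays, labelled as biological replicates. Dishes were transfected with 30 nM of oligonucleotide according to the labels' protocol, but the sources used here do not name what the control dishes received, so loss of 4.5SH and other effects of the transfection cannot be told apart. Nothing states whether replicates came from separate transfections, so p-values measure only the spread between these arrays. All cells are of 1 line, and only the cytoplasmic fraction was hybridised, so a change in the amount of a transcript and a change in its share in the cytoplasm cannot be told apart, nor can fewer cells from less RNA per cell.

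Nearly every messenger RNA ends where its precursor is cut and a poly(A) tail is added. The cleavage and polyadenylation specificity factor (CPSF) recognises the polyadenylation signal, and an endonuclease of the same factor cuts downstream. Poly(A) polymerase builds the tail, which the nuclear poly(A)-binding protein coats. Cleavage factor I and the cleavage stimulation factor (CstF) bind elements on either side of the cut and take part in the choice among alternative sites, which in neural cells often sets the length of the 3' end.

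Of the 35 member probe sets 30 passed the filter on low signal, a mean over all 4 arrays of at least 16.9, and all 10 genes kept at least 1. The other 5, all dim, were not tested. The measurement is the MAS5 signal, an intensity on a linear scale, and changes are log2 fold changes of signal + 16, knockdown minus control, with standard errors from limma on 2 against 2 arrays. The added 16 makes the change of a dim probe set look smaller. At an adjusted p of 0.05 over all 22525 tested probe sets, 5 member probe sets were higher and 6 lower in the knockdown and 19 did not pass. The passing share was 36.7%, against 35.6% of all tested probe sets, so passing was about as frequent among the members as on the array. By direction 16.7% of the members were higher and 20.0% lower, where the array gave 9.76% and 25.8%. The median log2 fold change was -0.10 over the tested member probe sets and -0.11 over all. In 23 of 30 tested member probe sets (76.7%) the arrays of the groups did not overlap, 10 with the knockdown above and 13 below, against 66.9% of all tested probe sets (22.6% above and 44.3% below).

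**Figure D1:**
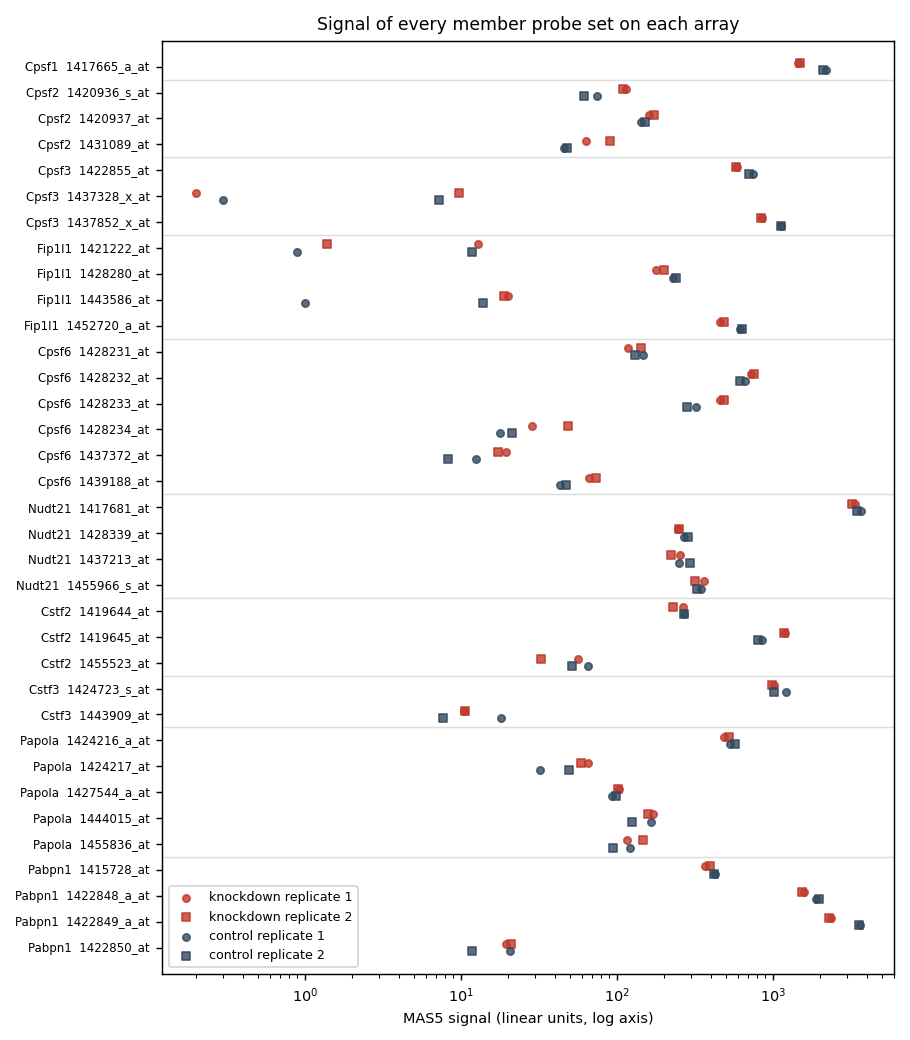
MAS5 signal (log axis) of all 35 member probe sets on each of the 4 arrays, with knockdown arrays in red and control arrays in dark blue. The groups separate cleanly for Cpsf1, for Pabpn1 1422849_a_at and for Cstf2 1419645_at, and overlap at 2 of 4 probe sets of Nudt21 and 2 of 5 of Papola.

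The signal of the arrays differed beyond these genes. Trimmed mean signals were 128 to 132 in knockdown arrays and 143 to 149 in control arrays, and the median change of all tested probe sets moved from -0.25 with spike-in scaling to -0.00 with quantile scaling. Control probe sets at the 3' end of Gapdh read 0.787 to 0.833 times those at its 5' end in the knockdown, against 0.861 to 0.884 in the control, and for Actb the factors were 2.47 to 2.49 against 2.60 to 2.78. Of 11 neuroblastoma markers 9 were above the filter (Th and Gata3 were not), 3 of them lower in the knockdown, with a summed signal of 7677 to 7771 against 8673 to 8840. Of 5 RNAs that mark nuclear material 4 were above it, with 2 lower (Malat1 and Neat1) and 1 higher (Xist). Their summed signal was 286 to 288 against 496 to 509, and it adds up opposite changes. Malat1 read 76.1 and 50.2 with knockdown against 433.8 and 417.2. Xist read 164.3 and 190.9 against 15.3 and 12.5. Summed signals were 352 to 368 against 657 to 763 for 5 immune markers, nearly all of it Cd68, which was lower, with Ptprc at 8.1 or below on every array. They were 173 to 186 against 207 to 231 for 6 fibroblast and endothelial markers, of which 3 were above the filter and 1 (Pecam1) was lower. For 5 glial markers, 3 of them above the filter and 1 (Sox10) higher, they were 81.0 to 112 against 82.5 to 99.3. The part of these shifts in the results on the members was not tested.

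To show the upstream sequence of members that moved each way, 4 promoters are given, 5′ to 3′ on the gene's strand, from RefSeq (GRCm38.p6). Each runs from 250 bases before to 50 after a start position. For Cpsf3 and Cpsf6 that position lies a little inside the annotated gene. Pabpn1 and Cpsf3 were lower and Cpsf6 and Cstf2 higher at their leading probe sets. RefSeq's table held a promoter for 9 of the 10 members, all but Cpsf1. Capitals mark any of 4 motifs on either strand: the CCAAT box (CCAAT), the GC box (GGGCGG), the core of ETS factor sites (CCGGAAG) and the TATA box (TATAAA).
Pabpn1: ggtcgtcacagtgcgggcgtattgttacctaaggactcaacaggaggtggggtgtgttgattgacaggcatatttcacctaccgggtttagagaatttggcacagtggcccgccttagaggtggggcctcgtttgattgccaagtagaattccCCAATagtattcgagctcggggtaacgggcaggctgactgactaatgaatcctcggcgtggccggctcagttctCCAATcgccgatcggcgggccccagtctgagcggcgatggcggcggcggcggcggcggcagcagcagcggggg
Cpsf3: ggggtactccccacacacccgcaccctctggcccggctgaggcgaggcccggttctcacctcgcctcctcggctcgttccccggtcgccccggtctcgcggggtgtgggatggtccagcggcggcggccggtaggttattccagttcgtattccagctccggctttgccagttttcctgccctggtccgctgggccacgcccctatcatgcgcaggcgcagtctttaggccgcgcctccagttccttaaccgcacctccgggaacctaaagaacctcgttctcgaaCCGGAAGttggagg
Cpsf6: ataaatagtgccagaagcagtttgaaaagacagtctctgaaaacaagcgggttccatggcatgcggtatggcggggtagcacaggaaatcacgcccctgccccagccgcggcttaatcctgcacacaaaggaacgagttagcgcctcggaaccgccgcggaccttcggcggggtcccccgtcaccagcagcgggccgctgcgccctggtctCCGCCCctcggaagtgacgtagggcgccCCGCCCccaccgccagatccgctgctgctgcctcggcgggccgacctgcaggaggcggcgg
Cstf2: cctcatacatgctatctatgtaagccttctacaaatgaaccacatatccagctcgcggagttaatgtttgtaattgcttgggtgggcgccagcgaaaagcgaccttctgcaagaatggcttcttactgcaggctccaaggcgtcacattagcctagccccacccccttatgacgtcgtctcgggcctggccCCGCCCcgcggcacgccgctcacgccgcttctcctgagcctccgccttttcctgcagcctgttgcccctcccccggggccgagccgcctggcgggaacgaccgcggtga
None of these windows held overlapping motifs of different kinds. The Pabpn1 window (chr14:54893893-54894192, plus strand) held 2 CCAAT boxes, the Cpsf3 window (chr12:21286047-21286346, plus strand) 1 ETS core, the Cpsf6 window (chr10:117376924-117377223, minus strand) 2 GC boxes and the Cstf2 window (chrX:134058926-134059225, plus strand) 1 GC box. Over the 9 member promoters the CCAAT box was in 4, the GC box in 4, the ETS core in 3 and the TATA box in 0. Among all 32851 promoters of this length the shares were 37.4%, 35.7%, 8.86% and 13.6%. The matches describe these letters alone.

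The scaffold and the polymerase tether of CPSF were lower. Cpsf1, the large scaffold subunit that organises recognition of the polyadenylation signal, has 1 probe set, 1417665_a_at, which read 1456.1 and 1499.3 with knockdown against 2208.1 and 2089.5 in control cells. Both knockdown arrays lay well below both control arrays. The log2 fold change was -0.53 ± 0.06 (limma adjusted p = 1.72e-05), so the knockdown stood at 69.0% of the control. Fip1l1, which links CPSF to poly(A) polymerase, read 462.9 and 487.3 against 618.4 and 634.4 at 1452720_a_at, a fall of 0.39 ± 0.08 on the log2 scale (limma adjusted p = 0.00212). Again the groups did not overlap. A further probe set of Fip1l1 drawn from the same source sequence, 1428280_at, read 177.6 and 201.7 against 228.5 and 240.8 and, at -0.29 ± 0.11, did not pass (limma adjusted p = 0.0607). The other 2 probe sets of Fip1l1 were below the filter, with no array above 20. With quantile scaling 1452720_a_at of Fip1l1 was at -0.20 and did not pass (limma adjusted p = 0.0589).

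The nuclease and its inactive partner stood on opposite sides of 0. Cpsf3, the endonuclease that makes the cut, was lower at both of its tested probe sets. At 1437852_x_at it read 849.7 and 839.1 against 1132.5 and 1130.8, a log2 fold change of -0.42 ± 0.07 (limma adjusted p = 3.33e-04). At 1422855_at it read 591.3 and 579.2 against 749.9 and 702.4, a change of -0.30 ± 0.08 (limma adjusted p = 0.00801). The ending _x_at marks a probe set some of whose probes may also match other transcripts, and 1422855_at has no such mark. With quantile scaling 1437852_x_at was at -0.24 and passed (limma adjusted p = 0.0102). Its remaining probe set lay at 9.8 or below on every array and was not tested.

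Cpsf2, a homologue of the nuclease without catalytic activity that pairs with it, was higher at 2 of 3 probe sets. At 1420936_s_at the signals were 114.6 and 110.7 with knockdown against 74.8 and 61.7, a rise of 0.61 ± 0.15 (limma adjusted p = 0.00502). At 1431089_at they were 64 and 91.1 against 46.3 and 48.2, a rise of 0.55 ± 0.18 (limma adjusted p = 0.0282). All knockdown arrays were above all control arrays at each, though the knockdown replicates of the second were far apart. The brightest, 1420937_at, read 162.3 and 173.1 against 143.2 and 151.4, and its 0.17 ± 0.12 did not pass (limma adjusted p = 0.294, 95% interval -0.08 to 0.42). It shares its source sequence with 1420936_s_at, whose ending marks probes common to transcripts of more than 1 gene or form. The mean of the 3 Cpsf2 probe sets rose by 0.44 (limma adjusted p = 0.00786). The interval of Cpsf2 at 1420936_s_at was 0.30 to 0.93 and that of Cpsf3 at 1437852_x_at -0.56 to -0.27. Taking the brightest probe set of each, log2 signal of Cpsf2 minus that of Cpsf3 was -2.28 and -2.18 on the knockdown arrays and -2.85 and -2.78 on the control arrays. Such a difference within an array shifted by 0.59 between the groups, is untouched by centring, and was taken after the values were seen and without a test.

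The calls on 1431089_at of Cpsf2 and 1422855_at of Cpsf3 were lost with some single arrays left out, which leaves a group without replicates. On all arrays the values were 0.55 and -0.30. Without knockdown replicate 2 the rise at 1431089_at of Cpsf2 was 0.34 and did not pass (limma adjusted p = 0.287), and without control replicate 1 or control replicate 2 it was 0.53 and 0.57, with an adjusted p of 0.0799 and 0.0571. For 1422855_at of Cpsf3 the value was -0.29 without knockdown replicate 2 (limma adjusted p = 0.0502) and -0.26 without control replicate 1 (0.0675). With quantile scaling 1422855_at was at -0.12 and did not pass (limma adjusted p = 0.221).

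**Figure D2:**
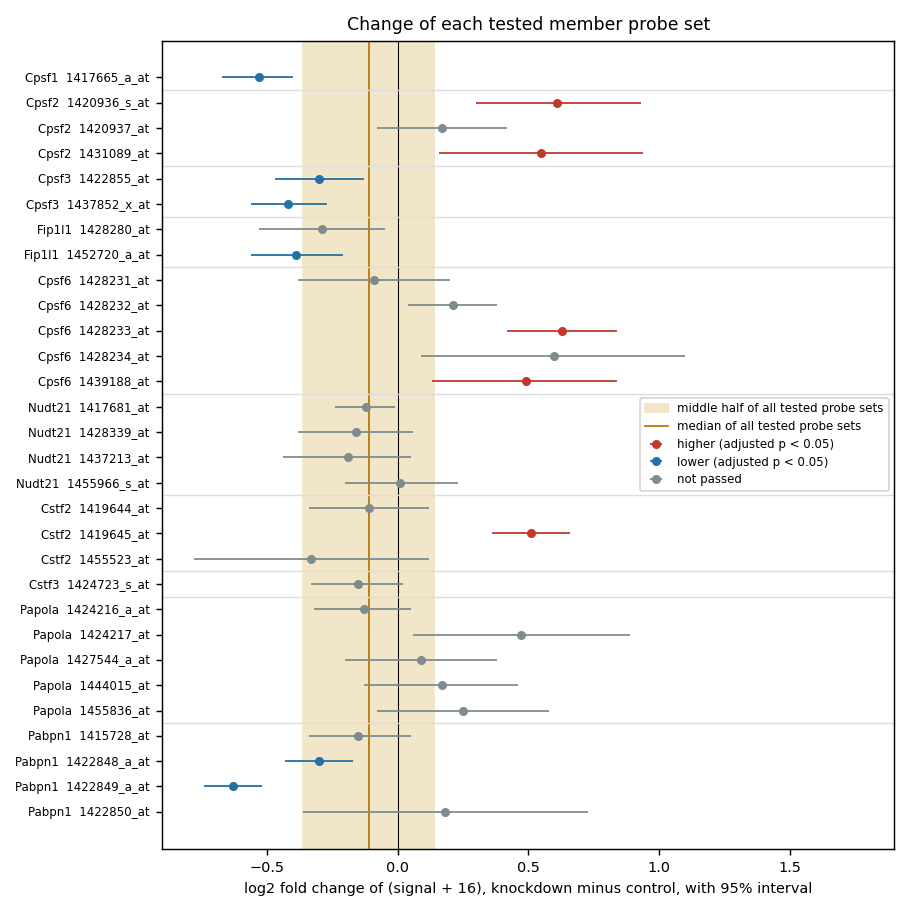
Log2 fold change of signal + 16 for the 30 tested member probe sets, knockdown minus control, as points with 95% intervals from limma, red where higher, blue where lower and grey where the adjusted p did not pass. The line at -0.11 is the median of all tested probe sets and the band, -0.36 to 0.14, holds the middle 50% of them. Cpsf1, Cpsf3, Fip1l1 and Pabpn1 have their passing points on the left and Cpsf2, Cpsf6 and Cstf2 on the right.

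Cleavage factor I is built from Nudt21, the small subunit that binds the RNA upstream of the cut, and a larger subunit such as Cpsf6, which carries an RNA-recognition domain and a domain rich in arginine and serine. Cpsf6 was higher at 2 of 5 tested probe sets. At 1428233_at it read 463.3 and 491.5 against 325 and 283.3, a log2 fold change of 0.63 ± 0.10 (limma adjusted p = 2.18e-04), and 96.6% of all tested probe sets had a lower value. At 1439188_at it read 66.9 and 73.8 against 43.5 and 47.7, a change of 0.49 ± 0.17 (limma adjusted p = 0.0348). No control array reached a knockdown array at either. The brightest, 1428232_at, read 730 and 759.6 against 668.4 and 616.8, and at 0.21 ± 0.08 it missed the threshold over all probe sets (limma adjusted p = 0.0535) but passed it among genes represented by their brightest probe set (0.0363). With quantile scaling it was at 0.39 and passed over all probe sets (limma adjusted p = 0.00113), and with spike-in scaling it was at 0.07 and passed in neither test. The dim 1428234_at gave 0.60 ± 0.24 with 28.8 and 48.8 against 17.8 and 21.5 and did not pass. At 1428231_at, with 118.5 and 144.1 against 148.3 and 132, the groups overlapped and the change was -0.09 ± 0.13. The sixth probe set, 1437372_at, was under the filter at 19.4 and 17.4 against 12.5 and 8.3.

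Of the 6 Cpsf6 probe sets 4 derive from 1 source sequence, 1428231_at and 1428233_at among them. Leaving out any 1 array ended the call of 1439188_at, with values of 0.54 without knockdown replicate 1, 0.43 without knockdown replicate 2, 0.44 without control replicate 1 and 0.54 without control replicate 2 (limma adjusted p = 0.0881, 0.178, 0.115 and 0.0547). Conversely 1428234_at rose by 0.86 and passed without knockdown replicate 1 (limma adjusted p = 0.0333). The mean of the 5 tested Cpsf6 probe sets rose by 0.37 (limma adjusted p = 0.0141). By its brightest probe set at gene level Cpsf6 was at 0.24 without knockdown replicate 1, 0.18 without knockdown replicate 2 and 0.15 without control replicate 2, none of which passed (limma adjusted p = 0.0761, 0.174 and 0.207).

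Nudt21 passed at none of 4 tested probe sets. Its brightest, 1417681_at, read 3367.1 and 3214.6 with knockdown against 3693.9 and 3477.5, a change of -0.12 ± 0.05 (limma adjusted p = 0.0901, 95% interval -0.24 to -0.01). This was close to the median of the array, with 48.6% of tested probe sets lower. The other 3 lay between -0.19 and 0.01, and the arrays of the groups overlapped at 2 of them. With spike-in scaling 1417681_at was at -0.27 and passed (limma adjusted p = 0.0136), as did 1437213_at at -0.33 (0.0486). At gene level Nudt21, at -0.12, passed on the brightest 25% of probe sets (limma adjusted p = 0.0479) and with a replicate block (0.0388). Without control replicate 2 its gene level value was -0.17. Within an array, log2 signal of Cpsf6 minus that of Nudt21 at the brightest probe sets was -2.18 and -2.06 with knockdown against -2.44 and -2.46 without, a shift of 0.33 that was not tested.

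In CstF, Cstf2 binds the element downstream of the cut and Cstf3 is the scaffold that holds the complex together. Cstf2 at 1419645_at read 1199.2 and 1184.3 against 856.3 and 805.9, a rise of 0.51 ± 0.07 (limma adjusted p = 7.75e-05). The knockdown arrays nearly coincided and lay 1.43-fold above the control. Its other probe sets did not follow: 1419644_at, from the same source sequence, read 267.4 and 230.7 against 269.4 and 269.9 (-0.11 ± 0.11). At 1455523_at the signals were 56.2 and 32.6 against 65.8 and 51.7, the groups overlapped, and the value was -0.33 ± 0.21. Neither passed, and the mean of the 3 Cstf2 probe sets changed by 0.02 (limma adjusted p = 0.876). Cstf3 at 1424723_s_at read 1017.7 and 997.1 against 1221 and 1027.6, a change of -0.15 ± 0.08 that did not pass (limma adjusted p = 0.173). Control replicate 1 stood apart there, and without control replicate 2 the value was -0.27 and passed (limma adjusted p = 0.0230). The second probe set of Cstf3 was below the filter. At the brightest probe sets, log2 signal of Cstf2 minus that of Cstf3 was 0.23 and 0.24 with knockdown against -0.50 and -0.34 without. This difference within an array shifted by 0.66, again without a test, and used 1419645_at, the only Cstf2 probe set that was higher.

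Papola, the canonical poly(A) polymerase, passed at none of its 5 tested probe sets. The brightest, 1424216_a_at, read 486.9 and 521.6 against 536.5 and 573.7 (-0.13 ± 0.08, limma adjusted p = 0.243, 95% interval -0.32 to 0.05). The other 4 were positive, from 0.09 to 0.47. The largest of them, 1424217_at, read 65.5 and 59 against 32.1 and 49.8 and missed the threshold at 0.47 ± 0.19 (limma adjusted p = 0.0720). Without control replicate 2 its value was 0.70 and passed (limma adjusted p = 0.0216).

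Pabpn1, which coats the growing tail in the nucleus and limits its length, had the largest fall of any member probe set. At 1422849_a_at it read 2379.1 and 2282.4 with knockdown against 3650.4 and 3581.4, a log2 fold change of -0.63 ± 0.05 (limma adjusted p = 1.59e-06), or 64.6% of the control. Only 9.03% of tested probe sets had a lower value. At 1422848_a_at it read 1579.8 and 1552.1 against 1889.3 and 1971.5, a fall of 0.30 ± 0.06 on the log2 scale (limma adjusted p = 0.00147). At 1415728_at the signals of 366.7 and 396.9 against 427.1 and 420.4 did not overlap but the change of -0.15 ± 0.09 did not pass (limma adjusted p = 0.235). The last, 1422850_at, lay at the edge of the filter with 19.6 and 21 against 20.7 and 11.8 and gave 0.18 ± 0.25. With quantile scaling 1422848_a_at was at -0.13 and did not pass (limma adjusted p = 0.0954). The mean of the 4 probe sets fell by 0.22 (limma adjusted p = 0.0317).

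Whether the probe sets of a gene changed by unequal amounts was tested with limma's diffSplice over all 5189 genes with at least 2 tested probe sets. Of the 8 members with that many, 1 passed, Pabpn1 (adjusted p = 0.0388), while 7.84% of all such genes did. Its 1422849_a_at lay 0.54 below and 1422850_at 0.54 above the other probe sets of the gene (diffSplice adjusted p = 0.0356 and 0.0358). These were 2 of 28 member probe sets in such genes, against 5.26% of all probe sets in them. Both come from 1 source sequence, and the second is the dim one. The call did not hold with quantile or spike-in scaling, a pseudocount of 1, no filter, the replicate block, a threshold of 0.01 or any array left out, where 0 members passed. Cstf2, whose probe sets spanned 0.84, and Cpsf6, whose probe sets spanned 0.71, did not pass (diffSplice adjusted p = 0.111 and 0.117). With a pseudocount of 64, which plays down dim probe sets, 3 members passed, namely Pabpn1 (0.00204), Cstf2 (0.0107) and Cpsf6 (0.0310). The same 3 passed on the brightest 25% of probe sets (0.0170, 0.0103 and 0.0170). No member had both a higher and a lower passing probe set, which 1.87% of genes with several probe sets did.

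At gene level, with each gene represented by its brightest tested probe set, 4 of 10 members were lower (Cpsf1, Cpsf3, Fip1l1 and Pabpn1), 2 were higher (Cpsf6 and Cstf2) and 4 did not pass (Cpsf2, Nudt21, Cstf3 and Papola). Over all 11814 tested genes 45.1% passed, 35.2% lower and 9.84% higher. The median was -0.14 for the members and -0.17 for all genes. Scaling moved the split: at probe set level quantile scaling gave 7 higher and 3 lower members, and spike-in scaling 3 higher and 10 lower. With spike-in scaling Nudt21 (-0.27), Cstf3 (-0.29) and Papola (-0.28) were lower at gene level as well (limma adjusted p = 0.00833, 0.0134 and 0.0382), and with quantile scaling Cpsf2 was higher there (0.32, limma adjusted p = 0.0341). The whole array moved in the same way, from 2199 higher and 5811 lower probe sets to 3823 and 3758 with quantile scaling and to 1042 and 8008 with spike-in scaling. Of the 11 passing member probe sets 6 kept their call under every alternative that tested them: Cpsf1 1417665_a_at, Cpsf2 1420936_s_at, Cpsf3 1437852_x_at, Cpsf6 1428233_at, Cstf2 1419645_at and Pabpn1 1422849_a_at. The alternative without _x_at and _s_at probe sets could not test those of Cpsf2 and Cpsf3. In none of the alternatives did a passing member probe set change sign. Only the pseudocounts, the scalings and the left-out arrays could change a sign. The other settings leave the log2 fold change of a probe set as it was.

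**Figure D3:**
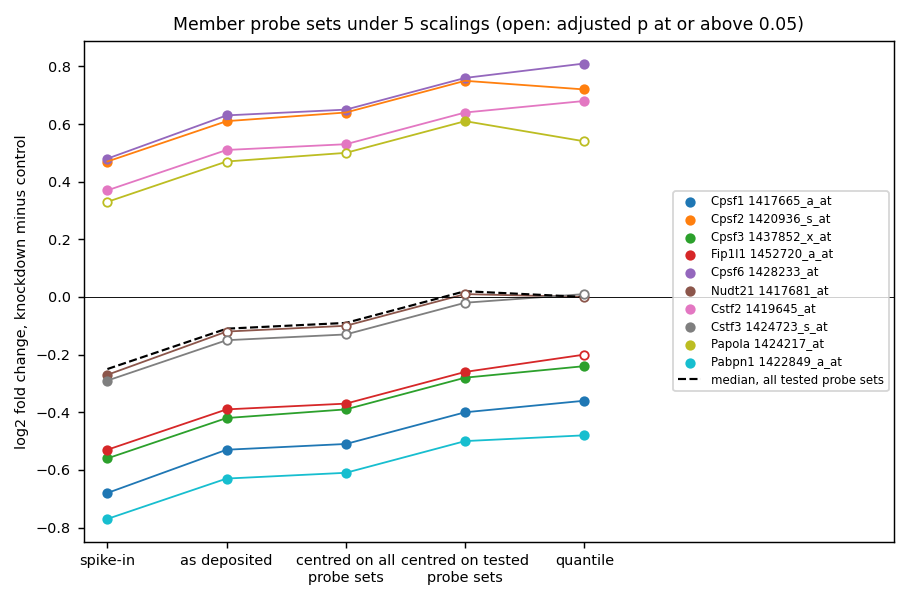
Log2 fold change (knockdown minus control) of the probe set with the smallest adjusted p of each member, under the deposited scale and 4 other scalings, with filled points where the adjusted p passed and open points where it did not. The dashed median of all tested probe sets goes from -0.25 with spike-in scaling to -0.00 with quantile scaling. The lines run nearly parallel to it. For the centrings, spike-in included, this is fixed in advance, since each subtracts the same value from all probe sets of an array. Lines of Cpsf2, Cpsf6 and Cstf2 stay above 0 while those of Cpsf1, Cpsf3, Fip1l1 and Pabpn1 stay below it.

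Among 18 other cleavage and polyadenylation genes, all tested, 9 were lower, 1 was higher and 8 did not pass, with a median of -0.24. Over all tested genes 35.2% were lower and 9.84% higher, with a median of -0.17. The largest falls were those of Wdr82, a partner of the polymerase II termination machinery (183.2 and 193.4 against 422 and 337.8, -0.95 ± 0.11, limma adjusted p = 3.66e-06), and Ssu72, a phosphatase of the polymerase II tail (1245.3 and 1203.8 against 1983.9 and 2024.3, -0.70 ± 0.06). Ssu72 was lower at 1 of 3 tested probe sets and at -0.37 as their mean, which passed. Cpsf7, the alternative large subunit of cleavage factor I, read 797 and 809.7 against 1231.4 and 1128.4 (-0.54 ± 0.07, limma adjusted p = 9.62e-06), opposite in sign to Cpsf6. Sympk, the scaffold symplekin that holds the nuclease module, read 482.7 and 461.1 against 678.8 and 671.7 (-0.50 ± 0.08), and was at -0.32 with quantile scaling. The higher gene was Papolg, a second poly(A) polymerase, with 262.5 and 319.1 against 155.2 and 150.5 (0.86 ± 0.12, limma adjusted p = 1.40e-05). Papolg has 2 tested probe sets that passed in opposite directions, and their mean of 0.17 did not pass (limma adjusted p = 0.279). Among the lower genes, Pcf11 had 2 lower and 1 higher passing probe sets, and Xrn2 had 1 of each. By the mean of each gene's probe sets 6 of the 18 were lower and 1, a gene other than Papolg, was higher. With quantile scaling 4 of the 18 were lower and 5 higher, and with spike-in scaling 12 and 1. Without knockdown replicate 1 or without control replicate 1 there were 5 lower ones.

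The next list is for the ends of histone and small nuclear RNAs, which are cut without a poly(A) tail being added. Of its 18 tested genes 5 were lower, 2 higher and 11 did not pass, with a median of -0.19. The shares over all tested genes were 35.2% lower and 9.84% higher, with a median of -0.17. Ints10, a subunit of the Integrator complex, was the lowest with 114.4 and 133.8 against 281.9 and 259 (-1.03 ± 0.12, limma adjusted p = 2.25e-06). Of its 2 tested probe sets only 1 passed. Lsm10, part of the U7 particle of histone RNA processing, read 289.6 and 310.7 against 545.2 and 515.4 (-0.79 ± 0.09). Ints6 at 0.41 ± 0.06 and the exonuclease Eri1 at 0.30 ± 0.09 were higher, although with spike-in scaling Ints6 was at 0.26 and Eri1, at 0.15, did not pass (limma adjusted p = 0.302). The mean of the 2 Eri1 probe sets, 0.21, did not pass either (limma adjusted p = 0.102). Without knockdown replicate 2 Eri1 was at 0.28 (limma adjusted p = 0.0694). With spike-in scaling 10 of the list were lower and 1 higher, and without control replicate 2 there were 8 lower.

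Of 13 tested genes of cytoplasmic poly(A) tails, 6 were lower, 2 higher and 5 did not pass, with a median of -0.07. Here too the shares over all tested genes were 35.2% lower and 9.84% higher, with a median of -0.17. Pabpc1, the main cytoplasmic poly(A)-binding protein, was higher with 5751.8 and 5735.6 against 3651.7 and 3254.3, a rise of 0.73 ± 0.05 (limma adjusted p = 2.29e-08). Its partner in translation, Paip1, read 368.5 and 376.1 against 264.8 and 241 (0.53 ± 0.10). Pabpn1, which acts in the nucleus, and Pabpc1 moved in opposite directions at their brightest probe sets. Cpeb1, which directs cytoplasmic polyadenylation, read 150.8 and 138.7 against 284.6 and 220.3 (-0.73 ± 0.13, limma adjusted p = 1.57e-04). Cpeb4 read 762.5 and 756.8 against 1238.5 and 1117.6 (-0.62 ± 0.07), but of its 3 probe sets 2 were lower and 1 higher, and their mean of -0.15 did not pass (limma adjusted p = 0.268). With quantile scaling 3 of the list were lower and 4 higher, and without knockdown replicate 1 there were 3 lower.

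**Figure D4:**
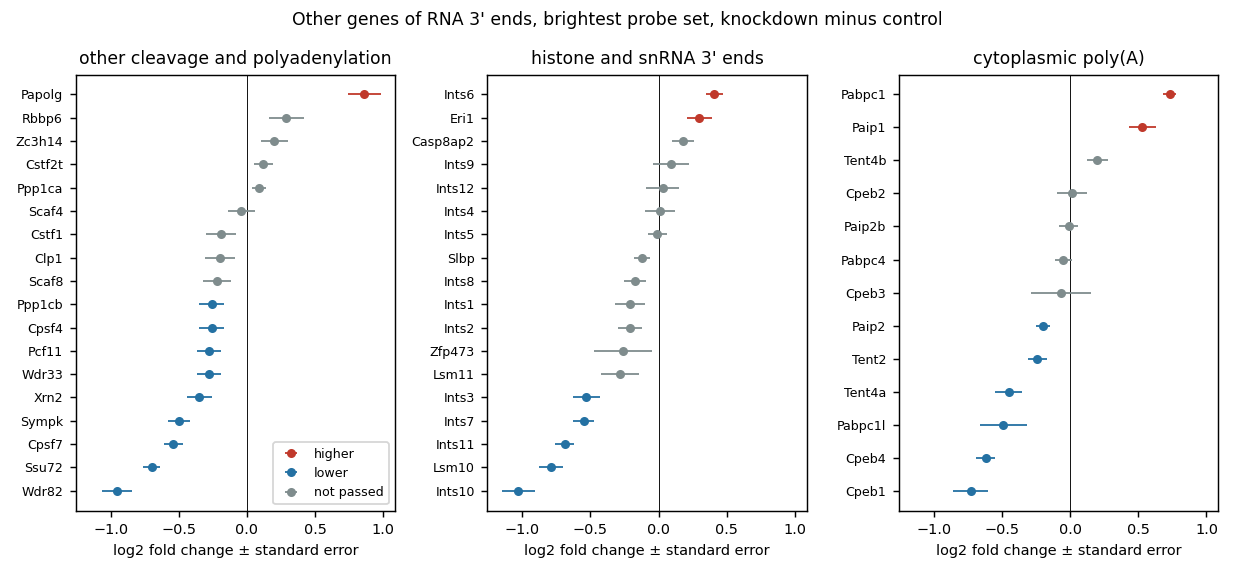
Log2 fold change (knockdown minus control) with standard error for the tested genes of 3 further lists, each by its brightest tested probe set, red where higher, blue where lower and grey where the adjusted p did not pass. Papolg (0.86) and Pabpc1 (0.73) lie farthest to the right and Ints10 (-1.03) and Wdr82 (-0.95) farthest to the left.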

How the data were processed

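The authors deposited linear intensities, namely a MAS5 signal for each probe set, per the submitters' processing notes. No version, scaling target or filter is stated in the sources used here. Of 45037 probe sets that are not controls, 34945 carried 1 gene symbol, 932 several and 9160 none, and 34741 symbols were updated by Entrez identifier (RefSeq, GRCm38.p6). Values were taken as log2(signal + 16) with no further scaling. Probe sets at or above the median mean signal were tested, 22525 in all, representing 11814 genes.

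The knockdown was compared with the control by limma 3.58.1 under R 4.3.3 (eBayes with an intensity trend, two-sided, Benjamini-Hochberg adjustment over everything tested, threshold 0.05) and, between probe sets of a gene, diffSplice. An exact permutation test of 2 against 2 arrays cannot go below 0.333, so each p rests on variance shared across probe sets. The number of arrays limits the precision. The scripts were tested on simulated data.

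Members, lists and tests were chosen with earlier results of these data known. All probe sets of members were named, and of each other list up to 4 (cleavage and polyadenylation) or 2 of the largest passing changes in each direction. The 17 alternatives were pseudocounts of 1 and 64, 4 scalings (quantile, centring on all or on the tested probe sets, and centring on 9 spike-in probe sets), no filter, the brightest 25%, no trend, a replicate block, no _x_at or _s_at probe sets, the mean of a gene's probe sets, a threshold of 0.01, and each array left out. Differences between partner genes within an array were added after the values were seen. The pairs not given above were Cpsf1 minus Fip1l1, with a shift of -0.15, and Pabpn1 minus Papola, with -0.50. These were at the brightest probe sets and not tested either. Figures used matplotlib 3.10.9. Probe positions and protein sequences were not used here.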

Additional observations from a re-analysis of the deposited data

How the results depend on the processing

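Replicate numbers did not pair the arrays (correlation of deviations 0.01), and with the replicate block 7 member probe sets were higher, 6 lower, and 0 member genes had unequal probe sets, against 5, 6 and 1. With quantile scaling 3 member probe sets were lower and 0 genes unequal, 5 other cleavage and polyadenylation genes were higher and 4 lower, 4 histone and small nuclear RNA genes were higher, and 4 cytoplasmic poly(A) genes were higher and 3 lower. Centring on the tested probe sets gave 8 higher member probe sets, 5 higher and 5 lower other cleavage and polyadenylation genes and 3 lower cytoplasmic poly(A) genes. Spike-in scaling gave 3 higher and 10 lower member probe sets, 1 higher and 7 lower member genes, 0 unequal genes, and 1 higher and 10 lower histone and small nuclear RNA genes. A pseudocount of 1 left 0 unequal member genes and a pseudocount of 64 gave 3. Without the filter 3 member probe sets and 1 member gene were higher and 0 genes unequal, and on the brightest 25% there were 3 higher probe sets and 3 unequal genes. Without the intensity trend 1 member gene was higher and 5 other cleavage and polyadenylation genes were lower. The smallest limma adjusted p values of the members grew there. That of Pabpn1 1422849_a_at went from 1.59e-06 to 0.0180 and that of Cpsf1 1417665_a_at from 1.72e-05 to 0.0236. The mean of probe sets left 1 higher gene for histone and small nuclear RNAs. At a threshold of 0.01 there were 3 higher member probe sets, 1 higher member gene, 0 unequal genes, 5 lower other cleavage and polyadenylation genes and 1 higher gene for histone and small nuclear RNAs. Leaving out each array gave 3 to 5 higher and 5 to 7 lower member probe sets (3 higher without knockdown replicate 2 or control replicate 1), 1 to 2 higher and 4 to 6 lower member genes, and 0 unequal genes each time. For the other cleavage and polyadenylation genes the range was 1 to 2 higher and 5 to 9 lower, for histone and small nuclear RNAs 1 to 3 higher and 5 to 8 lower, and for cytoplasmic poly(A) 2 higher and 3 to 5 lower. The cause of these moves was not tested. Some of the settings leave a smaller number of probe sets or arrays. Dim probe sets such as Cpsf2 1431089_at and Cpsf6 1439188_at passed in 8 of 15 alternatives each.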
